A study of Mus musculus with 16 samples.

Results

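The pore-forming alpha-1 subunits of voltage-gated calcium channels are described here across the cortex and cerebellum of the mouse. The members are the 8 genes Cacna1a, Cacna1b, Cacna1c, Cacna1d, Cacna1e, Cacna1g, Cacna1h and Cacna1i, chosen by name in the authors' gene table, out of 37583 genes in the count files. All 8 had enough counts for every comparison, from 97 counts for Cacna1h in a cerebellum library to 14330 counts for Cacna1a in another.

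RNA was sequenced from whole tissue of C57BL/6J mice, 4 wild-type and 4 carrying the A391T variant of the metal ion transporter gene Slc39a8, which the labels also number A393T. Each mouse gave 1 cortex and 1 cerebellum library, 16 in all, and the p-values measure the spread between these mice. The paper describes its wild-type mice as male and 12 weeks old, and no age or sex of the A391T mice was found in the sources used here. The comparisons ask how the regions differ within each genotype and how the genotypes differ within each region.

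An alpha-1 subunit forms the channel by itself: its long chain folds into 4 homologous domains around a central pore, each with a voltage sensor and a pore loop. The Cav2 genes encode the P/Q-type (Cacna1a), N-type (Cacna1b) and R-type (Cacna1e) channels, which serve transmitter release at nerve terminals and dendritic calcium entry. The Cav1 genes Cacna1c and Cacna1d encode L-type channels of cell bodies and dendrites, and the Cav3 genes Cacna1g, Cacna1h and Cacna1i encode T-type channels, which open near the resting potential and shape burst firing. In the cerebellum, P/Q-type current is known best from Purkinje cells and granule cell terminals.

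Each pore loop contributes 1 acidic residue to the ring that selects calcium ions, and this ring separates the high-voltage-activated channels (Cav1 and Cav2) from the T-type channels at the sequence level. In the annotated coding sequence of Cacna1a, Cacna1b, Cacna1c, Cacna1d and Cacna1e, the filter codon encodes glutamate in all 4 domains. In Cacna1g, Cacna1h and Cacna1i it encodes glutamate in domains 1 and 2 and aspartate in domains 3 and 4. The stretches of domain 3 are shown because they carry this difference, with the filter codon in capitals, 5′ to 3′ on the coding strand, read from the NCBIM37 (mm9) genome along the annotated transcript with the longest coding sequence.
Cacna1a: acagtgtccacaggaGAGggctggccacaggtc
Cacna1b: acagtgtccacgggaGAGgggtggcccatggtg
Cacna1e: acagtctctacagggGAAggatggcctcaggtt
Cacna1c: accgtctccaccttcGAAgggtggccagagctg
Cacna1d: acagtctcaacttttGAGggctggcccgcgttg
Cacna1g: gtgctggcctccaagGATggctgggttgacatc
Cacna1h: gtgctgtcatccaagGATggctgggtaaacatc
Cacna1i: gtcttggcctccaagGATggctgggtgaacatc

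The first 5 of these stretches are split between 2 coding exons, so that their genomic span holds an intron, while each of the 3 T-type stretches lies within 1 coding exon. That of Cacna1a (exons 27 and 28) spans chr8:87105222-87107461 on the plus strand, and that of Cacna1g (exon 24) chr11:94287770-94287802 on the minus strand. The stretch of Cacna1h lies in exon 23 at chr17:25520438-25520470 on the minus strand, and that of Cacna1i in exon 24 at chr15:80207222-80207254 on the plus strand.

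The 8 genes lie on 8 different chromosomes. Cacna1a (ENSMUSG00000034656) spans chr8:86912339-87164145 on the plus strand, Cacna1g (ENSMUSG00000020866) chr11:94269705-94335414 on the minus strand and Cacna1h (ENSMUSG00000024112) chr17:25511230-25570728 on the minus strand. Cacna1b (ENSMUSG00000004113) spans chr2:24459407-24618672 and Cacna1e (ENSMUSG00000004110) chr1:156239649-156573049, both on the minus strand. Cacna1c (ENSMUSG00000051331) lies at chr6:118542314-119146249 and Cacna1d (ENSMUSG00000015968) at chr14:30853135-31304342, both on the minus strand, and Cacna1i (ENSMUSG00000022416) at chr15:80117668-80228709 on the plus strand. Reads were counted without regard to strand, and exons of 3 members overlap a gene on the other strand, over 3.81% of exon bases in Cacna1a (Gm16183), 5.54% in Cacna1d (Chdh) and 1.61% in Cacna1h (Tpsg1).

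The libraries held from 20813432 to 30497206 counts on genes. Of 8 granule cell markers and 8 Purkinje cell markers, all 16 were higher in wild-type cerebellum past both criteria used below, and 9 of 10 markers of cortical projection neurons were lower there, so the regions carry their labels. Markers of adjoining tissue were uneven: the summed level of 8 choroid plexus markers ran from 55.8 to 8130 TPM over the wild-type cerebellum libraries and from 54.5 to 5853 TPM over the A391T ones, and that of 7 striatal markers from 270 to 936 TPM over the A391T cortex libraries. Slc39a8 was at 2.14 ± 0.579 TPM in wild-type and 2.46 ± 0.361 TPM in A391T cortex (SD, n = 4), which does not check the genotype, since the variant changes 1 residue. The names of 8 of 16 libraries, those of 4 mice, differ between the count files and the authors' table of RPKM values (reads scaled for gene length and library size), with wild-type mice 1 and 2 of the one appearing as A391T mice 3 and 4 of the other, and the reverse. The names given in the count files were kept, and values that move under the other names are given where they arise. Mice are numbered 1 to 4 within each genotype, in the order of their label numbers.

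Levels are in TPM, for which each count was divided by the authors' gene length and scaled to 1000000 per library, so that levels of different genes can be compared. In wild-type cortex the order ran from Cacna1a at 63.6 ± 11.5 TPM through Cacna1i at 55.0 ± 13.1, Cacna1e at 46.2 ± 16.6, Cacna1b at 39.4 ± 7.92 and Cacna1g at 37.7 ± 7.40 TPM (SD, n = 4). A lower group followed, with Cacna1d at 19.9 ± 2.71, Cacna1h at 19.3 ± 5.08 and Cacna1c at 15.4 ± 4.86 TPM. Only between Cacna1g and Cacna1d did neighbouring ranges not overlap. Even so, Cacna1a was higher than Cacna1i within each of the 4 libraries, by a mean ratio of 1.17.

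The order in wild-type cerebellum was steeper. Cacna1a stood at 184 ± 17.7 TPM and Cacna1g at 146 ± 7.44 TPM, followed after a 3.21-fold step by Cacna1i at 45.4 ± 2.82 and Cacna1e at 38.9 ± 9.76 TPM. Cacna1b at 23.2 ± 2.91, Cacna1d at 23.1 ± 2.14 and Cacna1c at 18.6 ± 2.99 TPM lay close to each other, and Cacna1h at 1.85 ± 0.761 TPM came last, with Cacna1c 10.9-fold above it. Ranges did not overlap between Cacna1a and Cacna1g, Cacna1g and Cacna1i, Cacna1e and Cacna1b, or Cacna1c and Cacna1h, and overlapped between the other neighbours. A391T mice had the same order in cortex, with Cacna1a first at 62.7 ± 5.02 and Cacna1c last at 16.1 ± 0.695 TPM. In A391T cerebellum Cacna1a at 157 ± 28.7 and Cacna1g at 137 ± 12.1 TPM overlapped, Cacna1d and Cacna1b changed places at 20.9 ± 3.85 and 18.9 ± 2.46 TPM, and Cacna1h was again last at 2.01 ± 1.36 TPM. The table's gene length departs most from the exon bases of the annotation for Cacna1b, with 13098 against 9942 bases. It is also longer for Cacna1c (10639 against 8817), Cacna1g (11174 against 10040) and Cacna1h (11518 against 9788). For Cacna1a it is shorter (11052 against 11418). The order of members and the overlap of their ranges, those of Cacna1a and Cacna1g in cerebellum included, therefore depend on the length used.

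**Figure D1:**
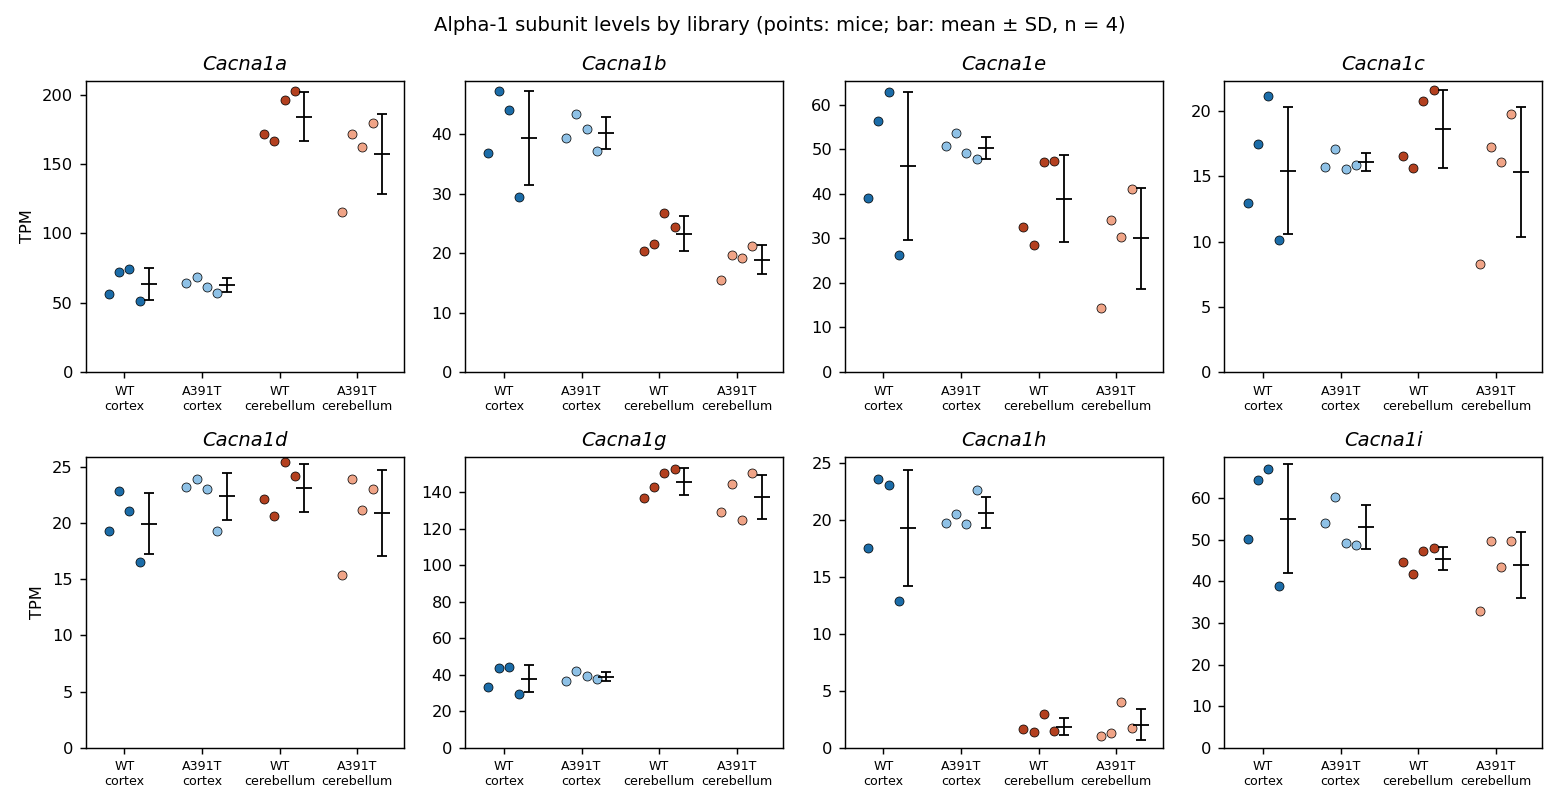
Level of each alpha-1 gene in TPM (vertical axis, from 0 in every panel) in the 4 groups, with 1 point per mouse and the mean ± SD beside the points (n = 4). Cacna1a and Cacna1g sit far higher in cerebellum in both genotypes, Cacna1h lies at or under 4.02 TPM in all 8 cerebellum libraries, and Cacna1c and Cacna1d overlap between regions.

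Between wild-type cerebellum and cortex, 3 of the 8 alpha-1 genes passed both criteria, an adjusted p under 0.05 in the quasi-likelihood test of edgeR, adjusted by Benjamini-Hochberg over all genes, and at least a 2-fold change. Cacna1a and Cacna1g were higher in cerebellum and Cacna1h was lower. Over all 16040 genes tested, 24.7% passed both criteria, 10.5% higher and 14.2% lower, so that 3 of 8 was little above the share of all genes. By the adjusted p alone the count was 5 of 8 against 67.8% of all genes. The median log2 fold change was -0.17 over the 8 members and 0.02 over all genes. In RNA of whole tissue, a difference in how many cells of a type are present and a difference in RNA per cell cannot be told apart.

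Cacna1a, the P/Q-type subunit, was at 56.3, 72.4, 74.4 and 51.4 TPM in the cortex libraries of wild-type mice 1, 2, 3 and 4. In the cerebellum of the same mice it was at 171, 167, 196 and 202 TPM. The lowest cerebellum library lay well above the highest cortex library, and all 4 mice had the higher level in cerebellum, from 2.30-fold to 3.94-fold. The log2 fold change was 1.38 (SE, the standard error, 0.11, adjusted p = 7.54e-07, edgeR), a 2.60-fold difference after TMM normalization, which scales each library by the bulk of its genes. It stayed past both criteria in all 22 alternatives run, from 1.29 to 1.51.

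Cacna1a in the A391T mice, numbers 1, 2, 3 and 4, was at 63.9, 68.8, 60.9 and 56.9 TPM in cortex and at 115, 172, 162 and 179 TPM in cerebellum. The cerebellum of mouse 1 was the lowest of its group and still above every cortex library. The log2 fold change in these mice was 1.22 (SE 0.11, adjusted p = 5.07e-06, edgeR), with a 95% interval from 0.98 to 1.46. A test against a change of exactly 2-fold, in place of a change of any size, did not call it.

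Cacna1g, a T-type subunit, was the member with the largest rise in cerebellum. In wild-type cortex it was at 33.5, 43.5, 44.3 and 29.4 TPM and in the cerebellum of the same mice at 137, 143, 151 and 153 TPM. These ranges are far apart, and the cerebellum level was 3.28-fold to 5.19-fold that of the cortex of the same mouse. Its log2 fold change was 1.80 (SE 0.11, adjusted p = 9.16e-08, edgeR). In A391T mice the cortex levels were 36.6, 42.2, 39.4 and 37.7 TPM and the cerebellum levels 129, 145, 125 and 150 TPM, in the same order of mice. Their log2 fold change was 1.71 (SE 0.08, adjusted p = 3.25e-08, edgeR), again with no overlap between regions.

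Cacna1h, another T-type subunit, went the other way. Its wild-type cortex levels were 17.6, 23.6, 23.1 and 12.9 TPM against 1.66, 1.35, 2.98 and 1.43 TPM in the cerebellum of the same mice. The cerebellum values rest on 125, 105, 227 and 104 counts, all far above the 3 counts that a count of 0 would allow. Cerebellum over cortex gave a log2 fold change of -3.53 (SE 0.26, adjusted p = 2.83e-07, edgeR), an 11.6-fold lower level. In A391T mice it was at 19.8, 20.5, 19.7 and 22.6 TPM in cortex and at 1.06, 1.26, 4.02 and 1.72 TPM in cerebellum, a log2 fold change of -3.48 (SE 0.34, adjusted p = 1.06e-05, edgeR).

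Among the 8 cerebellum libraries the highest Cacna1h levels were those of A391T mouse 3 at 4.02 TPM and wild-type mouse 3 at 2.98 TPM, with the other 6 between 1.06 and 1.72 TPM. Some markers of other cells and of adjoining tissue were also highest in these libraries. Of 6 inhibitory interneuron markers 3 were above the other 6 libraries in both: Sst at 143 and 106 TPM against 15.6 to 34.9 TPM, Vip at 5.82 and 4.77 TPM against 0 to 0.426 TPM, and Gad2 by a small margin. The same held for 2 of 7 striatal markers, among them Drd2 at 10.3 to 10.7 TPM against 1.13 to 2.74 TPM, and for 1 of 5 thalamic markers, Tcf7l2 at 16.9 TPM or more against 2.07 to 2.63 TPM. It also held for 1 of 10 cortical projection neuron markers (Bcl11b), 1 of 5 hippocampal markers (Fibcd1) and 2 of 12 immediate early genes (Egr2 and Egr3), and for 0 of 8 Purkinje cell, 0 of 8 granule cell, 0 of 8 choroid plexus and 0 of 5 blood markers. The striatal marker Ppp1r1b went the other way, at 231 and 232 TPM in these libraries against 240 to 302 TPM in the others. The share of all genes that were highest in these libraries was not counted. The part of other tissue in the Cacna1h level was not tested. Without these cerebellum libraries the log2 fold change of Cacna1h between regions was -3.86 in wild-type and -4.04 in A391T mice. Under the names in the RPKM table the wild-type log2 fold change of Cacna1h was -3.09 and that of A391T mice -4.04, past both criteria in each case.

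Cacna1i, the third T-type subunit, differed little between regions. Its wild-type levels were 50.2, 64.3, 67.0 and 38.7 TPM in cortex and 44.6, 41.8, 47.3 and 48.0 TPM in cerebellum, and the ranges overlapped, with mouse 4 lowest in cortex and highest in cerebellum. This was a log2 fold change of -0.43 (SE 0.14, adjusted p = 0.0166, edgeR), past the p criterion and under a 2-fold change. Without the cortex library of mouse 3 it was -0.33 and missed the p criterion (adjusted p = 0.0508, edgeR). In A391T mice the levels were 54.1, 60.2, 49.2 and 48.8 TPM in cortex and 32.9, 49.8, 43.5 and 49.7 TPM in cerebellum, a log2 fold change of -0.38 (SE 0.11, adjusted p = 0.013, edgeR). Among the T-type genes, then, Cacna1g was higher in cerebellum and Cacna1h and Cacna1i were lower, Cacna1i by less than 2-fold.

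Cacna1b, the N-type subunit, was lower in cerebellum in both genotypes. Wild-type cortex libraries held 36.9, 47.2, 44.0 and 29.4 TPM and the cerebellum libraries of the same mice 20.4, 21.4, 26.8 and 24.3 TPM. The ranges did not overlap, although mouse 4 was near the cerebellum range in its cortex. The log2 fold change was -0.91 (SE 0.13, adjusted p = 7.72e-05, edgeR), short of 2-fold, and without the cortex library of mouse 4 it was -1.03 and passed both criteria. In A391T mice, with 39.3, 43.4, 40.9 and 37.1 TPM in cortex and 15.4, 19.7, 19.2 and 21.2 TPM in cerebellum, it was -1.20 (SE 0.08, adjusted p = 5.64e-07, edgeR) and passed both. The difference between these 2 values was itself not significant, at -0.27 (SE 0.16, adjusted p = 0.769, edgeR interaction test). It was -0.16 without the cortex library of wild-type mouse 4.

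Cacna1e, the R-type subunit, was spread widely within groups. It was at 39.0, 56.4, 62.9 and 26.3 TPM in wild-type cortex and at 32.6, 28.5, 47.2 and 47.3 TPM in wild-type cerebellum, with 3 mice lower in cerebellum and mouse 4 higher. The log2 fold change was -0.40 (SE 0.24, adjusted p = 0.162, edgeR), with a 95% interval from -0.93 to 0.13, so that the regions did not differ beyond the spread between mice. Without the cortex library of mouse 4 it was -0.59 and passed the p criterion (adjusted p = 0.0134, edgeR), and over all libraries left out in turn it reached -0.23. It was -0.08 among mice with matching names. In A391T mice the levels were 50.6, 53.6, 49.2 and 47.7 TPM in cortex and 14.5, 34.1, 30.4 and 41.0 TPM in cerebellum, without overlap. That log2 fold change was -0.87 (SE 0.23, adjusted p = 0.0074, edgeR), under 2-fold. It was -1.04 and past both criteria without the cerebellum library of mouse 4, and -0.65 without that of mouse 1.

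The L-type genes Cacna1c and Cacna1d showed no regional difference beyond the spread between mice. Cacna1c was at 10.1 to 21.1 TPM in wild-type cortex and 15.6 to 21.6 TPM in wild-type cerebellum, with a log2 fold change of 0.12 (95% interval -0.29 to 0.53, adjusted p = 0.579, edgeR). Cacna1d was at 16.5 to 22.9 TPM in wild-type cortex and 20.6 to 25.4 TPM in wild-type cerebellum, with a log2 fold change of 0.06 (95% interval -0.15 to 0.26, adjusted p = 0.592, edgeR). Both intervals lie within a 2-fold change. In A391T mice the log2 fold changes were -0.18 (95% interval -0.61 to 0.25) for Cacna1c and -0.21 (95% interval -0.46 to 0.04) for Cacna1d, with adjusted p = 0.427 and 0.131 from edgeR. Without the cerebellum library of mouse 1 they were 0.01 and -0.11.

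In the A391T mice as a group, 4 of the 8 members passed both criteria between regions, Cacna1a and Cacna1g higher and Cacna1b and Cacna1h lower, against 24.7% of the 16005 genes tested, 9.8% higher and 14.9% lower. By the adjusted p alone the count was 6 of 8 against 62.8% of all genes. The median log2 fold change was -0.29 over the members and 0.03 over all genes. The wild-type and A391T comparisons share no library.

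**Figure D2:**
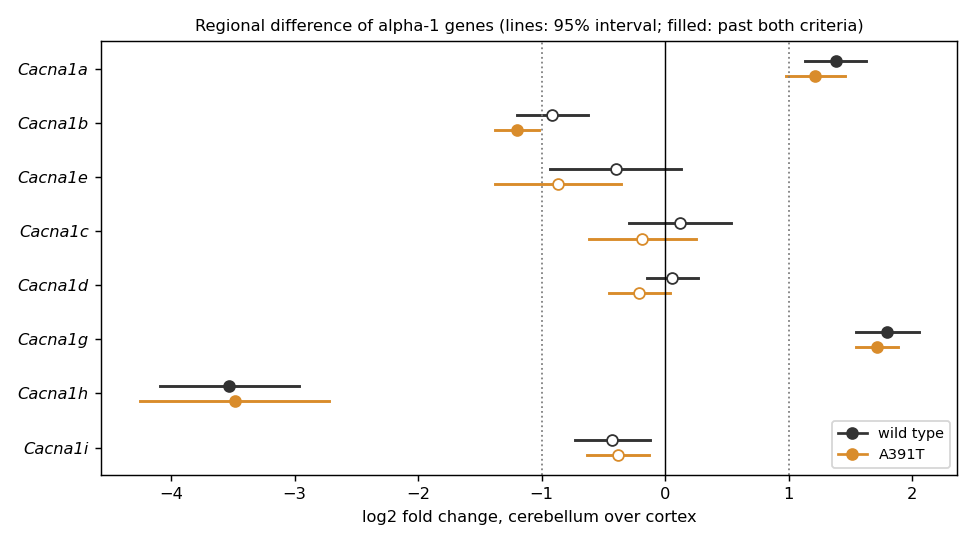
Log2 fold change of each alpha-1 gene, cerebellum over cortex (horizontal axis), in wild-type mice (dark) and A391T mice (orange), with 95% intervals from edgeR, filled points for genes past both criteria and dotted lines at a 2-fold change. In both genotypes Cacna1a and Cacna1g lie right of the 2-fold line and Cacna1h far left of it, while Cacna1b lies at -0.91 and -1.20 on either side of the line.

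The level summed over the 8 genes was 297 ± 68.4 TPM in wild-type cortex and 481 ± 44.7 TPM in wild-type cerebellum, and 304 ± 18.5 and 425 ± 67.7 TPM in the A391T mice (SD, n = 4). Shares of that sum within a library do not depend on how much of the library the family takes. Cacna1a made up 21.7% ± 1.50 of the sum in wild-type cortex and 38.3% ± 0.396 in wild-type cerebellum, and Cacna1g 12.8% ± 0.607 and 30.4% ± 1.59. All other members took a smaller share in cerebellum: Cacna1i had 18.5% in cortex and 9.48% in cerebellum, Cacna1e 15.2% and 8.00%, Cacna1b 13.4% and 4.83%, Cacna1d 6.85% and 4.80%, Cacna1c 5.13% and 3.86%, and Cacna1h 6.47% and 0.383%. These are values with no test.

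By class, with the same gene lengths, the composition was more even. The Cav2 genes together held 50.2% ± 0.472 of the sum in wild-type cortex and 51.1% ± 1.51 in wild-type cerebellum, with ranges of 49.8% to 50.7% and 49.3% to 52.5% that overlap. Within this class Cacna1a held a larger part in cerebellum and Cacna1b and Cacna1e a smaller one. The T-type genes held 37.8% ± 0.236 and 40.3% ± 1.77, and the L-type genes 12.0% ± 0.355 and 8.66% ± 0.291, with no overlap between regions for either class. In A391T mice the Cav2 share was 50.3% ± 0.547 in cortex and 48.1% ± 2.98 in cerebellum, and the T-type share 37.0% ± 0.837 and 43.4% ± 3.82. The cerebellum of A391T mouse 1 stood apart with a Cav2 share of 43.8% and a T-type share of 49.1%.

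**Figure D3:**
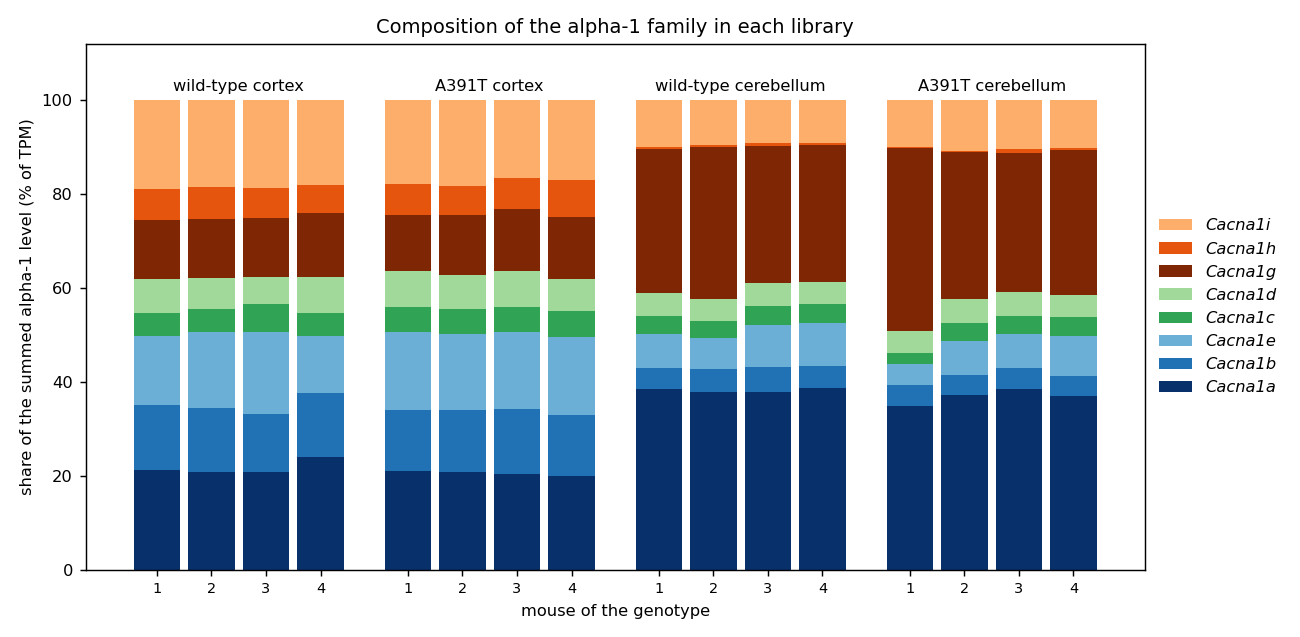
Share of each alpha-1 gene in the summed level of the 8 genes (% of TPM, vertical axis) in each of the 16 libraries, by mouse and group. The Cav2 genes (blue) fill from 43.8% to 52.5% of each bar, and Cacna1a (darkest blue) takes most of it in cerebellum, where Cacna1g (dark brown) also widens from 12.8% to 30.4% in wild-type mice and Cacna1h takes at most 0.953% of any library.

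In wild-type cortex all 8 members were lowest in mouse 4, and in A391T cerebellum 7 of the 8 were lowest in mouse 1, the exception being Cacna1g. The share of all genes that were lowest in the same libraries was not counted, so these counts set nothing apart for the family. The share of counts on 1865 other genes of at least 8000 bases was 19.2%, 21.3%, 21.2% and 18.0% in the wild-type cortex libraries of mice 1, 2, 3 and 4, where the summed alpha-1 level was 266, 348, 358 and 215 TPM. In A391T cerebellum that share was 17.6%, 20.2%, 20.2% and 21.1% for mice 1, 2, 3 and 4, and the summed alpha-1 level 332, 462.1, 421 and 486 TPM. The libraries lowest in one measure, the cortex of wild-type mouse 4 and the cerebellum of A391T mouse 1, were lowest of their group in the other. The 8 members have table lengths of 9297 to 13098 bases and belong to the same length class, and the part of this in their levels was not tested. The A391T cerebellum library of mouse 1 also had the lowest summed level of 8 granule cell markers, 2628 against 3119 to 3593 TPM in the other 7 cerebellum libraries. Of 8 Purkinje cell markers, Pvalb stood out there at 4418 against 1545 to 1871 TPM, and the sum of the other 7 markers, 5558 TPM, lay within the 5207 to 5974 TPM of the other libraries. With TMM factors computed from genes of at least 8000 bases, which was chosen after seeing the data, the wild-type log2 fold changes were 1.33 for Cacna1a, -0.96 for Cacna1b, 1.75 for Cacna1g and -3.58 for Cacna1h, with the same calls.

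**Figure D4:**
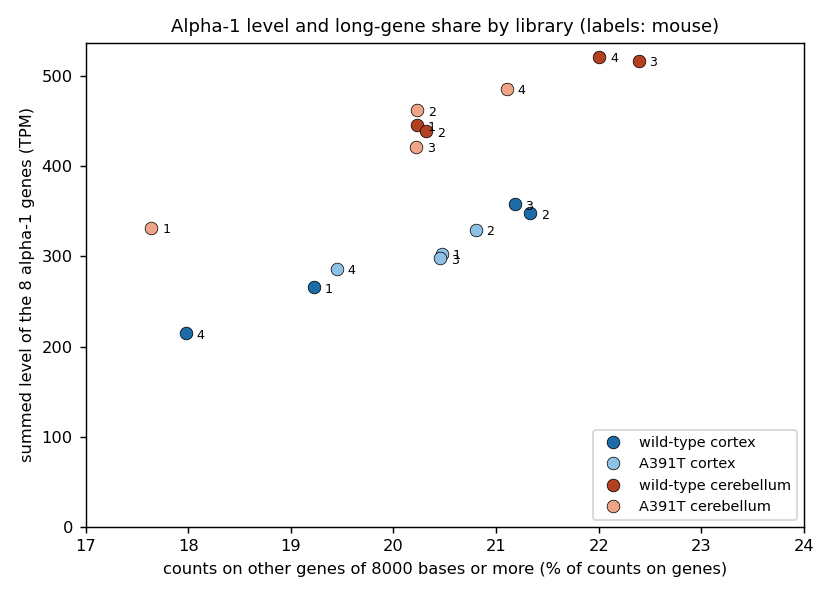
Summed level of the 8 alpha-1 genes (TPM, vertical axis, from 0) against the percentage of counts on other genes of at least 8000 bases (horizontal axis) in each library, labelled by the mouse's number. In 3 of the 4 groups the library with the lowest long-gene share also has the lowest summed level, as in the cortex of wild-type mouse 4 (18.0%, 215 TPM) and the cerebellum of A391T mouse 1 (17.6%, 332 TPM), while cerebellum libraries lie above cortex libraries at the same share.

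Between A391T and wild-type cortex, no alpha-1 gene was called: 0 of 8 had an adjusted p under 0.05 in edgeR's quasi-likelihood test and 0 of 8 an unadjusted p under 0.05, against 4.73% of all genes, and edgeR's exact test and DESeq2 also called 0. Of all 15815 genes, 0.0126% (2 genes) were called by the quasi-likelihood test, 13 genes by the exact test and 14 by DESeq2. The largest difference in size was that of Cacna1d, with 19.3, 22.9, 21.1 and 16.5 TPM in wild-type and 23.2, 23.9, 23.0 and 19.3 TPM in A391T cortex, ranges that overlap. Its log2 fold change was 0.15 (95% interval -0.05 to 0.34). Without the cortex library of A391T mouse 4 or of wild-type mouse 2 it was 0.21 in each case, with an unadjusted p under 0.05 and no call, and without that of wild-type mouse 4 it was 0.08. For Cacna1a the interval was -0.26 to 0.19, for Cacna1g -0.20 to 0.27 and for Cacna1i -0.37 to 0.23. The widest was that of Cacna1e, from -0.32 to 0.54 around 0.11. All 8 intervals exclude a 2-fold change in either direction.

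In cerebellum the count was again 0 of 8 by edgeR's quasi-likelihood test, against 0.0% of the 15668 genes. It was also 0 of 8 by edgeR's exact test and by DESeq2, which called 17 and 37 of all genes. In each of these tests 1 of 8 had an unadjusted p under 0.05. That gene was Cacna1b, with a log2 fold change of -0.25 (95% interval -0.46 to -0.04, adjusted p = 0.532, edgeR). Without the cerebellum library of wild-type mouse 3 or of wild-type mouse 4 it was -0.19 and -0.23, and 0 of 8 had an unadjusted p under 0.05. Its A391T levels, 15.4, 19.7, 19.2 and 21.2 TPM, overlapped with the wild-type levels of 20.4, 21.4, 26.8 and 24.3 TPM. Over all genes 8.55% had an unadjusted p under 0.05. Cacna1e at -0.33 (95% interval -0.92 to 0.25), Cacna1c at -0.24 (-0.70 to 0.22) and Cacna1a at -0.18 (-0.42 to 0.06) also had negative values that did not pass. Without the cerebellum library of A391T mouse 1 these 3 values were -0.13, -0.06 and -0.09, and without that of A391T mouse 4 they were -0.51, -0.37 and -0.24. Among mice with matching names they were -0.87, -0.63 and -0.37. Cacna1g at -0.03 (-0.19 to 0.12) and Cacna1i at 0.00 (-0.22 to 0.22) lay near 0, and the interval of Cacna1h, from -0.76 to 1.07, was the only one of the 8 that reached a 2-fold change. Its value of 0.16 turned to -0.41 without the cerebellum library of A391T mouse 3 and to -0.87 under the names in the RPKM table. Under those names 2 of 8 members, Cacna1h and Cacna1e, had an unadjusted p under 0.05 and 0 of 8 were called.

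The interaction of region and genotype, which tests whether the regional difference depends on the genotype, called 0 of 8 members by edgeR. By edgeR 0 of 8 had an unadjusted p under 0.05, where 0.0% of 16589 genes were called and 4.85% had such a p. DESeq2 called 0 of 8 members and 1 of all genes. The largest interaction value among the members was -0.45 for Cacna1e (SE 0.36, adjusted p = 0.769, edgeR). It ran from -0.63 to -0.24 with a library left out and was -1.09 among mice with matching names. One member had an unadjusted p under 0.05 under the names in the RPKM table (Cacna1h), among mice with matching names (Cacna1b) and without the cortex library of wild-type mouse 2 (Cacna1b), and 0 of 8 were called in each case. Without both libraries with the lowest long-gene share, also chosen after seeing the data, that of Cacna1e was -0.05, and 1 of 8 had an unadjusted p under 0.05, Cacna1i at 0.28 (adjusted p = 0.877, edgeR). The summed level of 12 immediate early genes was 1193 to 1594 TPM in wild-type and 1651 to 2320 TPM in A391T cortex, without overlap, though 0 of 12 were called by edgeR and 6 of 12 had an unadjusted p under 0.05, against 4.73% of all genes. Under the names in the RPKM table these ranges overlapped, with 1394 to 2320 TPM in wild-type and 1193 to 1810 TPM in A391T cortex. Its part in the values of the members was not tested.

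Channels of the Cav1 and Cav2 classes work with auxiliary subunits, the beta subunits (Cacnb genes) that bring the alpha-1 subunit to the membrane and the alpha-2-delta subunits (Cacna2d genes) that raise its surface level, while most gamma genes (Cacng) encode partners of AMPA receptors. Of the 16 auxiliary genes 14 were tested in wild-type mice, of which 2 were higher in cerebellum past both criteria, 6 were lower and 6 did not pass both criteria, where 10.5% of all genes were higher and 14.2% lower. Their median log2 fold change was -0.14. In A391T mice 2 of 15 were higher and 7 lower, against 9.8% and 14.9% of all genes. The added gene among the 7, Cacng6, had 10 to 16 counts in A391T cortex and 0 to 1 in A391T cerebellum. It entered the test only through its cortex counts, so its call as lower and its value of -5.20 are not read as a result. It had too few counts for the wild-type test. Cacng1 was tested in neither.

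Cacna2d2 was the alpha-2-delta gene that rose, at 16.4 to 40.8 TPM in wild-type cortex and 126 to 142 TPM in wild-type cerebellum. Its log2 fold change was 2.15 (SE 0.21, adjusted p = 3.94e-06, edgeR). Cacna2d1 fell by 2.00 on the log2 scale (SE 0.10, adjusted p = 9.81e-09, edgeR), from 103 ± 8.43 to 28.7 ± 4.30 TPM, and Cacna2d3 was lower by a log2 fold change of -1.19. Of the summed alpha-2-delta level, Cacna2d2 made up 10.8% ± 3.42 in wild-type cortex and 60.5% ± 0.801 in wild-type cerebellum, while Cacna2d1 made up 41.1% and 12.8%. Cacna2d4 was at -0.12 and did not pass the test.

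Among the beta genes, Cacnb3 was at 379 to 465 TPM in wild-type cortex and at 90.1 to 99.6 TPM in wild-type cerebellum, a log2 fold change of -2.36 (SE 0.08, adjusted p = 4.52e-10, edgeR). Cacnb1 was lower too, at -2.73. Cacnb4 was at 76.3 to 96.7 TPM in cortex and 130 to 145 TPM in cerebellum, a log2 fold change of 0.46 that passed the p criterion only, and Cacnb2 at -0.05 did not pass. Cacnb4 therefore held 12.8% ± 0.731 of the summed beta level in wild-type cortex and 48.9% ± 1.76 in wild-type cerebellum, where Cacnb3 went from 63.7% ± 0.883 to 34.6% ± 1.91. The A391T mice had close values, with Cacnb4 at 12.4% and 48.6% and Cacna2d2 at 9.82% and 56.3%.

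Among the gamma genes, Cacng3 had a log2 fold change of -4.25 and Cacng8 one of -2.25, both past both criteria, and Cacng5 was higher by 2.80. Cacng7 at 0.71 and Cacng2 at 0.51 had an adjusted p under 0.05 and less than a 2-fold change, as had Cacng4 at -0.16.

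**Figure D5:**
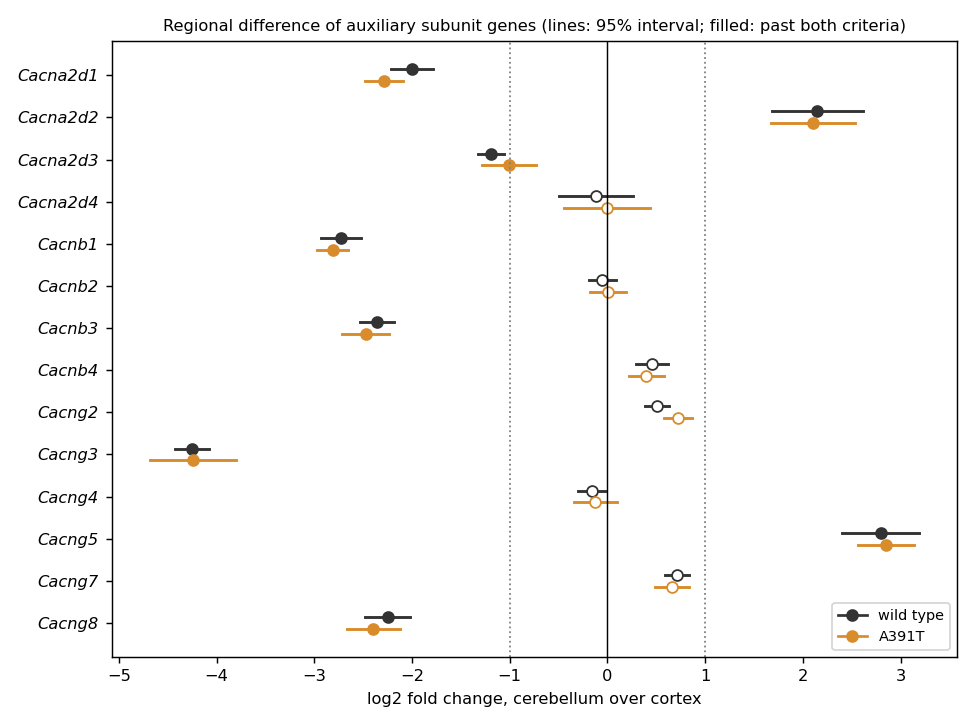
Log2 fold change, cerebellum over cortex (horizontal axis), of the 14 auxiliary subunit genes tested in wild-type mice (dark) and of the same genes in A391T mice (orange), with 95% intervals from edgeR, filled points past both criteria and dotted lines at a 2-fold change. Cacna2d2 and Cacng5 lie to the right in both genotypes, and Cacna2d1, Cacna2d3, Cacnb1, Cacnb3, Cacng3 and Cacng8 to the left.

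Of 3 other genes of the alpha-1 superfamily, Cacna1f, Cacna1s and the leak channel gene Nalcn, 1 had an adjusted p under 0.05 between regions in edgeR's test, against 67.8% of all genes in wild-type and 62.8% in A391T mice, and none reached a 2-fold change. It was Cacna1s, the alpha-1 subunit of skeletal muscle, at 0.95 in wild-type mice. Its levels were low, at 0.490 TPM (16 to 26 counts) in wild-type cortex and 1.05 TPM (35 to 53 counts) in wild-type cerebellum. Of 11 modulators of these channels, 2 were higher in wild-type cerebellum, Stac at 4.31 and Stac3 at 1.37, which encode adaptor proteins of L-type channels, and 2 were lower, the small GTPase gene Gem at -2.49 and Stac2 at -1.31. Gem had only 6 to 14 counts per library in wild-type cerebellum. In A391T mice 1 modulator gene was higher and 2 were lower. In either genotype 24.7% of all genes passed both criteria. None of the genes of these lists, nor any auxiliary gene, was called between genotypes by edgeR in either region, with the auxiliary gene Cacng2 and the modulator gene Stac3 at an unadjusted p under 0.05 in cortex and the modulator gene Stac in cerebellum.

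As a description of pattern, each member was compared with all 16589 genes tested over the 16 libraries by Pearson's correlation of log2(CPM + 1), where CPM is a count scaled to 1000000 per library without division by length. The 16 libraries are 8 of each region, and each library's depth and long-gene share enter both genes of a pair. The genes most like Cacna1a were Kndc1 (r = 0.998) and Dock9 (r = 0.996), and Arhgef37 (r = 0.998) was among those most like Cacna1g. Cacna1h was most like Grm5 and Gfra1 (r = 0.996 each), and Cacna1b most like Iqsec2 (r = 0.993) and Fbxo41 (r = 0.992). For the members with small regional differences the highest values were lower. They were Prrc2c (0.972) for Cacna1c, Trim44 (0.982) and Dlg2 (0.976) for Cacna1e, BC018507 and the sodium channel gene Scn2a1 (0.925 each) for Cacna1d, and Fzd3 (0.920) and Grlf1 (0.918) for Cacna1i.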

How the data were processed

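PolyA-selected directional libraries of cortex and cerebellum were sequenced from 4 wild-type and 4 A391T mice. Per the submitters' processing notes and the paper, the authors mapped reads with STAR to mm9, counted them with HTSeq 0.11.2 and used edgeR 3.28.1 (versions from the paper). The deposited counts are whole numbers per gene, unnormalized and, by their file names, counted without regard to strand. The authors' table of RPKM values and gene lengths gave names and lengths, and its RPKM columns were matched to the counts.

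Entries on no single gene, 21.4% to 27.1% per library, were left out of totals and tests. Counts were tested with edgeR 4.0.16 (limma 3.58.1, R 4.3.3) using filterByExpr, TMM normalization and its quasi-likelihood test, with Benjamini-Hochberg adjustment over all genes, separately for each comparison of 4 against 4 libraries and over all 16 for the interaction. Region calls needed at least a 2-fold change beside an adjusted p under 0.05; genotype and interaction calls needed the adjusted p alone. The test was checked on simulated counts. Tables and figures used Python 3.11.15, pandas 2.3.3, numpy 2.4.6, matplotlib 3.10.9 and biopython 1.88. Depth is given as counts on genes. Counting error was not separated from the spread between mice, and it weighs most for genes of few counts, such as Cacng6, Gem and Cacna1s.

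Coordinates and coding sequences come from NCBIM37 with its GENCODE annotation, the build of mm9. The same mouse gave both regions, by the labels' numbers and the paper, so the numbers pair the libraries. Deviations from group means correlated at -0.172 to 0.222 across genes within a mouse (median -0.087, n = 8 pairs). Between mice they correlated at -0.261 to 0.236 (median 0.034, n = 24 pairs), so the counts themselves do not show the pairing. The paper's methods do not describe a block, and it was run as an alternative, beside DESeq2 1.42.0, edgeR's exact test, other normalizations and filters, the RPKM table's library names and each library left out.

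All 8 members are named. From fixed lists of auxiliary subunits, other alpha-1 genes, modulators, calcium stores, pumps and buffers, and calcium-activated potassium channels, every gene is counted. Named are at most the 4 past both criteria with the largest change in each direction in wild-type mice, and also the auxiliary genes that did not pass. For likeness the 2 most correlated genes are named, except for 2 genes that are not reported here. Genes named beyond this rule, Cacng6 and Cacna1s among them, were chosen after their values were seen. Members and lists were chosen with earlier results of these data known. The symbols Mcu, Drd1, Hbb-bs and Hbb-bt of the lists matched no gene name.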

Additional observations from a re-analysis of the deposited data

Results flagged for a closer look

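Among 91 groups of 4 libraries of the 8 members and the auxiliary subunit genes at a mean of at least 1 TPM, 3 held a library far from the other 3 of its group by Dixon's test, which chance alone marks in about 1 of 20 groups. Cacnb3 stood at 379 TPM in the cortex of wild-type mouse 4, below the others of its group. In the cerebellum of A391T mouse 1 it stood at 62.3 TPM, again below the others. Cacna2d2 stood at 19.1 TPM in the cortex of A391T mouse 3, which also had the lowest summed striatal marker level, 270 TPM. None of the members was among them.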

How the results depend on the processing

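Lengths, build and strand setting are those of the authors, and 4 mice a group set the width of the intervals. Cacna1a, Cacna1g and Cacna1h in wild-type mice and Cacna1b, Cacna1g and Cacna1h in A391T mice passed both criteria in all 22 alternatives. By the adjusted p alone the member count in wild-type mice was 5. With mouse as a replicate block the regional calls of members did not change, with 1.39 for Cacna1a, -0.90 for Cacna1b, 1.82 for Cacna1g and -3.55 for Cacna1h in wild-type mice. Under the RPKM table's names together with the block, Cacna1e passed in A391T mice at -1.02, and among mice with matching names at -1.19. Library totals moved the median log2 fold change of all genes to 0.14 in wild-type and 0.16 in A391T mice. In CPM, without division by length, the next member after Cacna1a in cortex was Cacna1e rather than Cacna1i, with Cacna1a 1.28 times its level in wild-type and 1.09 times in A391T mice, while the ratios in TPM, to Cacna1i, were 1.17 and 1.18.

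None of the values that follow passed an adjusted p of 0.05, and the cause of each change of sign was not tested. Between genotypes in cortex, Cacna1a turned to 0.0942 and 0.0545 and Cacna1i to 0.161 and 0.0909 under the table's names and among mice with matching names, and Cacna1b to -0.0088 with TMM from long genes. In cerebellum, Cacna1h turned to -0.87 and -0.81 under the same settings, and Cacna1g to 0.0577 with TMM from long genes. Cacna1i, at 0.0005, turned to -0.0058 with DESeq2 and RLE factors, -0.0088 with library totals, -0.0054 without a filter, -0.0094 with at least 10 counts in every library, -0.0067 with all 16 libraries in one model, -0.101 under the table's names and -0.0993 among matching mice. For the interaction, Cacna1a turned to 0.0277, Cacna1c to 0.0417 and Cacna1g to 0.0131 without both libraries of low long-gene share, and Cacna1g to 0.0498 with TMM from long genes. Cacna1h turned to -0.94 under the table's names, -0.97 among matching mice and -0.0509 with the replicate block, and Cacna1i to -0.27 and -0.21 under the first 2 of these.

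With each library left out in turn, regional values ran from -0.0305 to 0.29 for Cacna1c and -0.0196 to 0.13 for Cacna1d in wild-type mice, and from -0.32 to 0.0068 for Cacna1c and -0.27 to -0.11 for Cacna1d in A391T mice. In cortex between genotypes they ran from -0.12 to 0.0304 for Cacna1a, -0.0949 to 0.10 for Cacna1b, -0.10 to 0.22 for Cacna1c, -0.0747 to 0.28 for Cacna1e, -0.0591 to 0.10 for Cacna1g, -0.0592 to 0.19 for Cacna1h and -0.20 to 0.0237 for Cacna1i. In cerebellum they ran from -0.0635 to 0.0111 for Cacna1g, -0.41 to 0.46 for Cacna1h and -0.0534 to 0.0839 for Cacna1i, and for the interaction from -0.15 to 0.0242 for Cacna1g, -0.50 to 0.38 for Cacna1h and -0.0366 to 0.19 for Cacna1i.

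Over all genes, the adjusted p alone called 10875 genes in wild-type and 10056 in A391T mice between regions. Between genotypes in cortex the count was 2, with 14 by DESeq2, 13 by the exact test, 7 without a filter, 0 with RLE factors, library totals, a stricter filter, the table's names or one model, 1 with TMM from long genes or among matching mice, and 0 to 4 with a library left out. In cerebellum it was 0, with 37 by DESeq2, 17 by the exact test, 3 in one model and 1 without a filter, and the interaction had 1 by DESeq2.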

Other observations

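Calcium taken up through these channels is buffered, pumped out and released again by other proteins. Of 24 genes of calcium stores, pumps and buffers found in the files, 8 were higher and 3 lower in wild-type cerebellum past both criteria of edgeR's test, where 24.7% of all genes passed, with a median log2 fold change of 0.37 against 0.02 over all genes. The calcium-binding proteins calretinin (Calb2) at 4.91, parvalbumin (Pvalb) at 3.39 and calbindin (Calb1) at 2.60, and the reticular calcium pump gene Atp2a3 at 4.73, had the largest log2 fold changes upward. Calbindin and parvalbumin are known from Purkinje cells and calretinin from granule cells. The genes that were lower were the plasma membrane pump genes Atp2b4 at -2.25 and Atp2b1 at -1.76 and the exchanger gene Slc8a2 at -1.10. In A391T mice the counts were also 8 and 3.

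Calcium-activated potassium channels are opened by this calcium and end bursts of firing. Of 7 tested genes in wild-type mice, 2 passed both criteria of edgeR's test, near the 24.7% of all genes, both lower in cerebellum, Kcnmb2 at -1.55 and Kcnn1 at -1.12, with a median of -0.53. In A391T mice 3 of 7 passed, all lower.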
